A study of Mus musculus with 12 samples.

Results

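The transcripts of 7 genes were followed in the spinal cord of mice with and without Plekhg5 and with and without mutant human SOD1. These genes encode members of the glutamate transporter family and an enzyme that recycles the transmitter glutamate. The genes were the glutamate and neutral amino acid transporters Slc1a1, Slc1a2, Slc1a3, Slc1a4, Slc1a5 and Slc1a6 and the glutamine synthetase gene Glul, chosen by their symbols among the 45906 genes of the count table. All 7 passed the filter on low counts, which 20155 genes passed. The measurement was RNA-seq of polyadenylated RNA from whole spinal cord of 12 mice on a C57BL/6 background, all 7 months old. The 4 genotypes, with 3 mice each, were Plekhg5+/+, Plekhg5-/-, Plekhg5+/+ SOD1-G93A and Plekhg5-/- SOD1-G93A. Plekhg5-/- mice lack Plekhg5, which is needed for the autophagy of synaptic vesicles in motoneurons. SOD1-G93A mice carry a human SOD1 transgene with the ALS-linked G93A change, here in a line with few transgene copies and slow disease. The comparisons address what the transgene does to these transcripts, and whether loss of Plekhg5 alters that.

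Glutamate released at synapses is removed by transporters that use the sodium gradient. Astrocytes carry most of this uptake, through GLT-1 (Slc1a2) and GLAST (Slc1a3), while EAAC1 (Slc1a1) and EAAT4 (Slc1a6) are mainly neuronal. In astrocytes, glutamine synthetase (Glul) converts the glutamate to glutamine, which returns to neurons and is turned back into glutamate. Slc1a4 (ASCT1) and Slc1a5 (ASCT2) belong to the same family but exchange neutral amino acids such as serine, alanine and, for Slc1a5, glutamine. Loss of astrocytic GLT-1 protein in the spinal cord is a known feature of ALS and of SOD1 mutant rodents, and the drug riluzole acts in part on glutamate signalling.

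The libraries held 30415643 to 38743628 counts. Transcript levels are given as CPM, which are counts scaled to library size with TMM factors. Plekhg5 itself had 22.9 ± 3.08 CPM in Plekhg5+/+ and 22.4 ± 2.19 CPM in Plekhg5+/+ SOD1-G93A mice, against 3.98 ± 0.712 CPM in Plekhg5-/- and 4.26 ± 0.413 CPM in Plekhg5-/- SOD1-G93A mice (SD, n = 3 each). Human SOD1 stood at 4993 ± 612 and 5001 ± 97.1 CPM in both transgenic genotypes and at no more than 5.47 CPM in any other library. Markers of neurons, motoneurons, astrocytes, microglia and oligodendrocytes were all detected in this tissue, labelled spinal cord. All 4 Schwann cell markers tested were present too, at a summed level that ranged from 46.8 to 343.4 CPM between libraries. Y-linked transcripts were present in 3 of 3 Plekhg5+/+, 2 of 3 Plekhg5-/-, 2 of 3 Plekhg5+/+ SOD1-G93A and 1 of 3 Plekhg5-/- SOD1-G93A libraries, so that the sexes were not balanced between genotypes.

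Between mice of 1 genotype, Glul and Slc1a4 deviated against each other, more closely than any other pair of the 7 genes by rank, as described at the end. The 250 bases before the annotated start of both are shown for that reason, a choice made after the values were seen. The sequences are from RefSeq on GRCm38.p6, which held such a window for 6 of the 7 genes and none for Slc1a5, and run 5′ to 3′ on the strand of the gene. They lie at chr1:153899679-153899928 (plus strand) for Glul and chr11:20332714-20332963 (minus strand) for Slc1a4. Capitals mark matches, on either strand, to GGGCGG (part of the sequence bound by Sp1), CCAAT (NF-Y), TATAAA (TBP) and TGACGT (CREB). No matches overlap each other in these windows.
Glul: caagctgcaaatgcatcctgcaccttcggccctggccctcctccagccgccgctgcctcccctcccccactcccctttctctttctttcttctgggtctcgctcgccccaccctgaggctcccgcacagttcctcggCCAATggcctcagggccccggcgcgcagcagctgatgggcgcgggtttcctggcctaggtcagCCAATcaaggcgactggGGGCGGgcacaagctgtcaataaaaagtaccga
Slc1a4: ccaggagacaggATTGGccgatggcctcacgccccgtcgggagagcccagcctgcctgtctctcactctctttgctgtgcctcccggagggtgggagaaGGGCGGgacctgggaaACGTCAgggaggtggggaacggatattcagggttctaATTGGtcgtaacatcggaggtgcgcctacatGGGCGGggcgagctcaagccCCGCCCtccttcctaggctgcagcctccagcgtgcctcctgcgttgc

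Glul held 1 and Slc1a4 held 3 matches to GGGCGG, which 32.7% of the 32851 windows of this length hold. Both held 2 matches to CCAAT, found in 33.8% of all windows. Slc1a4 also held 1 TGACGT (6.47% of windows), and neither held TATAAA (12.4% of windows). Both windows were 64.8% G or C, beside a median of 52.4% over all windows. Among the others, the window of Slc1a3 held 3 CCAAT, 1 GGGCGG, 1 TATAAA and 1 TGACGT, that of Slc1a1 held 1 GGGCGG and that of Slc1a6 held 6, of which some overlapped. These matches are a description of letters only, and binding was not measured. The windows given for Slc1a2, with 0 matches, and for Slc1a6 lie inside the genes as the count table delimits them, before 1 of the annotated starts.

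In all 12 libraries Glul and Slc1a2 had the highest levels per length of the 7 genes. Levels of different genes are compared here as CPM per kb of exon, with the exon length of the count table. Glul had 657 ± 70.1 CPM per kb (SD over the 12 libraries), followed by Slc1a2 with 178 ± 17.1, Slc1a3 with 37.9 ± 4.3, Slc1a1 with 24.7 ± 1.69 and Slc1a4 with 19.2 ± 1.87. Slc1a6 with 2.4 ± 0.167 and Slc1a5 with 1.67 ± 0.445 CPM per kb were the lowest. The libraries of neighbouring genes in this order did not overlap, except for 2 pairs. Slc1a1 ranged from 21.7 to 26.7 and Slc1a4 from 17.1 to 23.5 CPM per kb, and Slc1a6 ranged from 2.17 to 2.65 and Slc1a5 from 1.00 to 2.63 CPM per kb. The order therefore does not separate Slc1a1 from Slc1a4, or Slc1a6 from Slc1a5.

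**Figure D1:**
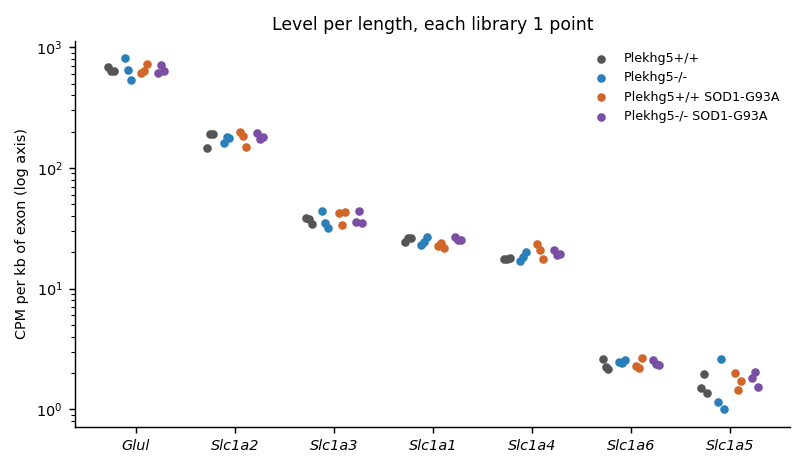
Level of each gene in CPM per kb of exon (log axis), with 1 point for each of the 12 libraries, coloured by genotype. Glul (657 CPM per kb on average) and Slc1a2 (178) stand above the other genes in all libraries, and the genotypes of a gene lie closer together than these genes lie apart.

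Among the 4 glutamate transporters proper (Slc1a1, Slc1a2, Slc1a3 and Slc1a6), Slc1a2 made up 73.1% of the summed level per length, with a range of 68.8% to 75.6% over the libraries. Slc1a3 made up 15.7%, Slc1a1 10.2% and Slc1a6 0.996%. The share of Slc1a2 was 72.9% ± 3.31 in Plekhg5+/+, 73.0% ± 2.64 in Plekhg5-/-, 73.0% ± 3.67 in Plekhg5+/+ SOD1-G93A and 73.4% ± 2.18 in Plekhg5-/- SOD1-G93A mice (SD, n = 3 each). These means lay closer together than the mice of any 1 genotype. Slc1a6, best known from Purkinje cells of the cerebellum, was thus a minor transcript of this tissue.

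The 2 glial transporters did not differ detectably between genotypes. Slc1a2 (chromosome 2, 102658239 to 102790784, plus strand) had 1951, 2527 and 2540 CPM in the Plekhg5+/+ mice and 2135, 2423 and 2362 CPM in the Plekhg5-/- mice. In the Plekhg5+/+ SOD1-G93A mice it had 2625, 2465 and 1979 CPM, and in the Plekhg5-/- SOD1-G93A mice 2596, 2324 and 2413 CPM. The lowest libraries were 1 wild type and 1 SOD1-G93A mouse, and all 4 genotypes overlapped. With the transgene in the Plekhg5+/+ background, the log2 fold change of Slc1a2 was 0.010 ± 0.11 (SE, edgeR, adjusted p = 0.976). Its 95% interval ran from 15.2% lower to 19.6% higher, so a change within these limits is not excluded with 3 mice per genotype. The interval is not the limit of detection of the test over all genes. Protein was not analysed here. Slc1a2 shares a stretch of its strand with the transcript LOC115489466 (18.7 counts on average), and reads there were split between both.

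Slc1a3 (chromosome 15, 8634124 to 8710807, minus strand) had 162.6, 157.9 and 143.3 CPM in Plekhg5+/+ and 183.9, 147.7 and 134.2 CPM in Plekhg5-/- mice. It had 177.9, 141.7 and 181.3 CPM in Plekhg5+/+ SOD1-G93A and 150.6, 184.1 and 147.8 CPM in Plekhg5-/- SOD1-G93A mice. High and low libraries occurred in every genotype but Plekhg5+/+, whose libraries lay inside the range of the Plekhg5-/- mice. With the transgene in the Plekhg5+/+ background its log2 fold change was 0.11 ± 0.13 (SE, edgeR, adjusted p = 0.694), with an interval from 10.7% lower to 30.7% higher. It was 0.047 without the third Plekhg5+/+ and 0.20 without the second Plekhg5+/+ SOD1-G93A library.

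Glul (chromosome 1, 153899929 to 153909723, plus strand), whose product makes glutamine, had 1925, 1799 and 1775 CPM in Plekhg5+/+ and 2279, 1808 and 1498 CPM in Plekhg5-/- mice. It had 1729, 1791 and 2036 CPM in Plekhg5+/+ SOD1-G93A and 1704, 2006 and 1781 CPM in Plekhg5-/- SOD1-G93A mice. The highest and the lowest of all 12 libraries were both Plekhg5-/- mice, and the 4 means lay between 1830 and 1862 CPM. No comparison of 2 genotypes moved Glul by more than 2%: the fitted changes ran from 1.69% lower, for the transgene in the Plekhg5-/- background, to 1.55% higher, for loss of Plekhg5 without the transgene. The intervals of these 4 comparisons reached from 18.3% lower to 22.2% higher. The microRNA gene Mir8114 lies within Glul on its strand (287 counts on average), and reads there were counted in part for each.

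**Figure D2:**
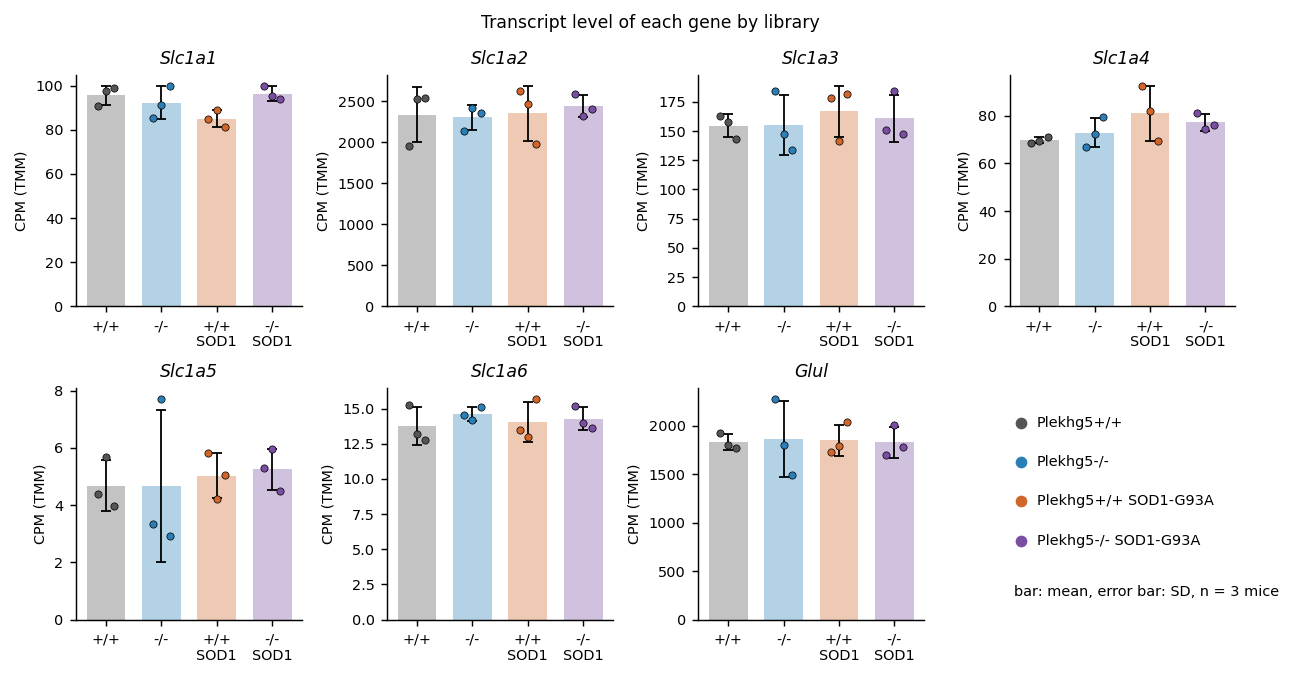
TMM-scaled CPM of each of the 7 genes in the 12 libraries, with 1 point per mouse, bars for the mean and error bars for the SD of 3 mice, from a baseline of 0 and on a scale of its own for each gene. For Slc1a1 the 3 Plekhg5+/+ SOD1-G93A mice (81.2 to 89.1 CPM) lie below both the Plekhg5+/+ and the Plekhg5-/- SOD1-G93A mice, and for Slc1a4 the Plekhg5+/+ mice (up to 71.0 CPM) lie below the Plekhg5-/- SOD1-G93A mice (from 74.5 CPM).

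In the 4 comparisons of 2 genotypes, only the neuronal transporter Slc1a1 of the 7 genes had genotypes without overlap, in 2 of them. Of all genes, 20.6% did not overlap with the transgene in the Plekhg5+/+ background, and 19.5% with loss of Plekhg5 in the SOD1-G93A background. The differences of Slc1a1 were small and did not pass the test over all genes. Slc1a1 (chromosome 19, 28835135 to 28913960, plus strand) had 90.8, 97.3 and 98.7 CPM in Plekhg5+/+ and 85.3, 91.3 and 99.99 CPM in Plekhg5-/- mice. It had 84.8, 89.1 and 81.2 CPM in Plekhg5+/+ SOD1-G93A and 99.98, 95.3 and 93.9 CPM in Plekhg5-/- SOD1-G93A mice. All 3 Plekhg5+/+ SOD1-G93A mice were below all 3 mice of the wild type and below all 3 of Plekhg5-/- SOD1-G93A, and they overlapped with the Plekhg5-/- mice.

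With the transgene in the Plekhg5+/+ background the log2 fold change of Slc1a1 was -0.17 ± 0.067 (SE), or 11.1% lower, with an unadjusted p of 0.0255 and an adjusted p of 0.2 (edgeR). Its adjusted p lay between 0.106 and 0.426 over all alternative settings. With loss of Plekhg5 in the SOD1-G93A background it was 0.18 ± 0.067, or 13.4% higher, with an unadjusted p of 0.0183 and an adjusted p of 0.517 (edgeR, 0.276 to 0.869 over the alternatives). Both comparisons use the same 3 Plekhg5+/+ SOD1-G93A libraries. The difference between the effects of the transgene in both backgrounds, tested as an interaction, was 0.23 ± 0.095 on the log2 scale, with an unadjusted p of 0.0285 and an adjusted p of 0.496 (edgeR, 0.334 to 0.817 over the alternatives). Without the transgene, loss of Plekhg5 gave -0.053 ± 0.067, and with Plekhg5 missing, the transgene gave 0.064 ± 0.067.

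Cell type markers differed in level between the same libraries. Over all genes, 18.2% and 8.64% had an unadjusted p under 0.05 in these 2 comparisons. The summed level of 6 motoneuron markers was 201.4 to 262.7 CPM in Plekhg5+/+ SOD1-G93A mice. This lay below the 275 to 282.7 CPM of Plekhg5+/+ and overlapped the 224.9 to 306.2 CPM of Plekhg5-/- SOD1-G93A mice. None of the 6 passed the test in either comparison (edgeR, unadjusted p under 0.05 for 4 and 3). The summed level of 6 endothelial markers was 120.4 to 145.9 CPM in Plekhg5+/+ SOD1-G93A mice, below the 155.2 to 173.6 CPM of Plekhg5+/+ and the 166.2 to 216.4 CPM of Plekhg5-/- SOD1-G93A mice, although 0 of the 6 passed the test in either comparison (edgeR; unadjusted p under 0.05 for 1 and 5 of them). The summed level of 8 neuron markers was 7161 to 8239 CPM in Plekhg5+/+ SOD1-G93A, 8711 to 8844 CPM in Plekhg5+/+ and 7928 to 8588 CPM in Plekhg5-/- SOD1-G93A mice, with 0 of 8 past the test (edgeR; unadjusted p under 0.05 for 3 and 2). The summed level of 4 Schwann cell markers was 47.7 to 131.4 CPM in Plekhg5+/+ SOD1-G93A mice, overlapping the 57.1 to 234.1 CPM of Plekhg5+/+ and below the 225 to 343.4 CPM of Plekhg5-/- SOD1-G93A mice, with 0 of 4 past the test (edgeR; unadjusted p under 0.05 for 0 and 2). Astrocyte markers summed to 7520 to 10311 CPM in Plekhg5+/+ SOD1-G93A against 6760 to 6845 CPM in Plekhg5-/- SOD1-G93A mice, and microglia markers to 963.3 to 1758 against 726.1 to 804.2 CPM. Their part in the Slc1a1 values was not tested. In RNA of whole tissue, fewer cells of a type and less RNA per cell cannot be told apart.

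Slc1a6 (chromosome 10, 78780086 to 78814825, plus strand), the other neuronal transporter, had 15.3, 13.2 and 12.8 CPM in Plekhg5+/+, 14.6, 14.2 and 15.1 CPM in Plekhg5-/-, 13.4, 13.0 and 15.7 CPM in Plekhg5+/+ SOD1-G93A and 15.2, 13.99 and 13.6 CPM in Plekhg5-/- SOD1-G93A mice. The genotypes overlapped. Its fitted changes over the 4 comparisons of 2 genotypes ran from -0.036 to 0.087 on the log2 scale, each smaller than its SE of 0.094 to 0.095.

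Both neutral amino acid exchangers, Slc1a4 and Slc1a5, had higher fitted values with the transgene in both backgrounds, as did Slc1a2 and Slc1a3. None of these passed the test over all genes. Slc1a4 (chromosome 11, 20302180 to 20332713, minus strand), an exchanger of serine and alanine, had 68.7, 69.3 and 71.0 CPM in Plekhg5+/+ and 67.0, 72.4 and 79.3 CPM in Plekhg5-/- mice. It had 92.2, 81.8 and 69.2 CPM in Plekhg5+/+ SOD1-G93A and 81.3, 74.5 and 75.9 CPM in Plekhg5-/- SOD1-G93A mice. The wild type mice lay close together, at 69.7 ± 1.19 CPM (SD, n = 3), whereas the Plekhg5+/+ SOD1-G93A mice spread over 81.1 ± 11.5 CPM and their lowest mouse overlapped with the wild type. All 3 Plekhg5-/- SOD1-G93A mice were above the wild type mice, a pair of genotypes that differs in both Plekhg5 and the transgene and was not tested. The share of all genes without overlap was not counted for this pair, so this separation cannot be set against it. The log2 fold change with the transgene was 0.22 ± 0.093 (SE) in the Plekhg5+/+ background, or 16.3% higher, with an unadjusted p of 0.035 and an adjusted p of 0.232 (edgeR). Without the third Plekhg5+/+ SOD1-G93A library the value was 0.32 with an adjusted p of 0.0544, the smallest among all values of the 7 genes under any setting, and without the first it was 0.12. Averaged over both backgrounds the transgene gave 0.15 ± 0.065 with an unadjusted p of 0.0384 and an adjusted p of 0.306 (edgeR). Without the first Plekhg5+/+ SOD1-G93A library this was 0.10, with an unadjusted p of 0.112, and without the third it was 0.20.

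Slc1a5 (chromosome 7, 16781334 to 16798274, plus strand), a glutamine transporter, was the least precise of the 7. It had 93 to 256 counts per library and a coefficient of variation within genotypes of 30.5%. It had 4.38, 5.70 and 3.98 CPM in Plekhg5+/+, 3.33, 7.71 and 2.93 CPM in Plekhg5-/-, 5.81, 4.22 and 5.07 CPM in Plekhg5+/+ SOD1-G93A and 5.30, 5.95 and 4.51 CPM in Plekhg5-/- SOD1-G93A mice. The 3 Plekhg5-/- mice alone spanned the whole range of the gene. With the transgene its log2 fold change was 0.11 ± 0.30 in the Plekhg5+/+ and 0.17 ± 0.30 in the Plekhg5-/- background (SE, edgeR, adjusted p = 0.897 and 0.962). When 1 library was left out, the first ran from -0.013 to 0.27 and the second from -0.073 to 0.74. Over the 4 comparisons of 2 genotypes, its intervals reached from 36.8% lower to 76.8% higher, so that changes within these limits are not excluded.

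Across all 6 comparisons, 0 of the 7 genes passed an adjusted p of 0.05 (edgeR). DESeq2, whether or not a fold-change prior was used, and limma voom also called 0 of 7 in each. For the transgene in the Plekhg5+/+ background, 2.47% of the 20155 genes were called, a share that rested on 2 wild type libraries. They were 498 genes, but 4 without the first and 2 without the second Plekhg5+/+ library, and 223 (without the first Plekhg5+/+ SOD1-G93A library) to 771 (without the second) when any other library was left out. At an unadjusted p under 0.05, 2 of 7 genes (Slc1a1 and Slc1a4) passed beside 18.2% of all genes, and 1 of 7 had genotypes without overlap beside 20.6% of all genes. On the log2 scale the 7 genes had a median of 0.029, and all genes had -0.001. With loss of Plekhg5 in the SOD1-G93A background, 0.0347% of all genes were called, 1 of 7 genes (Slc1a1) had an unadjusted p under 0.05 beside 8.64% of all genes, and 1 of 7 did not overlap beside 19.5%. The median of the 7 genes was 0.022, and that of all genes -0.0097. Counts this small do not set the 7 genes apart from all genes.

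Without the transgene, loss of Plekhg5 changed 0.0298% of all genes at this threshold and 0 of 7 genes had an unadjusted p under 0.05, beside 5.32% of all genes. In 0 of the 7 genes were these genotypes without overlap, beside 8.71% of all genes. In the Plekhg5-/- background the transgene changed 0.00496% of all genes at this threshold, 0 of 7 had an unadjusted p under 0.05 beside 5.38%, and 0 of 7 were without overlap beside 12.5%. For the interaction, edgeR and voom called 0% of all genes, edgeR gave an unadjusted p under 0.05 to 1 of 7 genes (Slc1a1) and to 9.05% of all genes, and DESeq2 called 98 genes without and 111 with the prior. For the transgene averaged over both backgrounds, 1.22% of all genes were called, and 1 of 7 (Slc1a4) had an unadjusted p under 0.05 beside 14.7% of all genes.

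**Figure D3:**
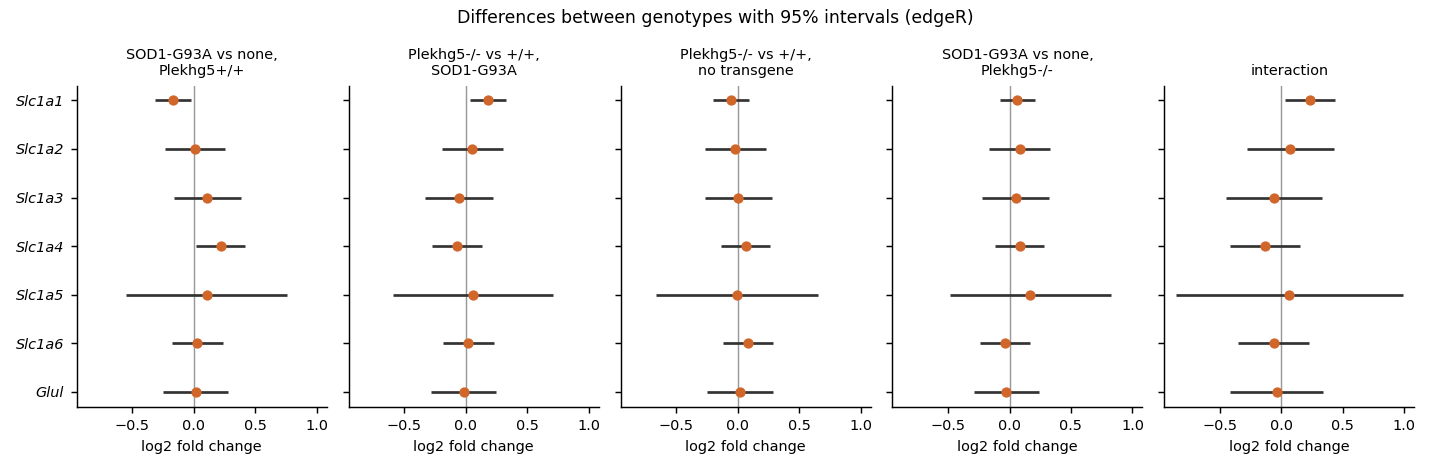
Log2 fold change (point) and 95% interval (line) of each gene from edgeR in 4 comparisons of 2 genotypes and in the interaction. Intervals that exclude 0 before adjustment are those of Slc1a1 and Slc1a4 with the transgene in the Plekhg5+/+ background, Slc1a1 with loss of Plekhg5 in the SOD1-G93A background, and Slc1a1 in the interaction, and none passed the adjusted threshold of 0.05.

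The intervals give the size of change that these mice allow. Over the 4 comparisons of 2 genotypes they lay between 19.6% lower and 25.4% higher for Slc1a1, 17% lower and 25.8% higher for Slc1a2, 20.4% lower and 30.7% higher for Slc1a3, and 17.1% lower and 33.7% higher for Slc1a4. Those of Slc1a6 lay between 15.3% lower and 22.4% higher. The spread between mice of 1 genotype set these limits. The coefficient of variation within genotypes was 5.37% for Slc1a1, 7.69% for Slc1a6, 9.05% for Slc1a4, 11% for Slc1a2, 12.5% for Glul, 12.7% for Slc1a3 and 30.5% for Slc1a5.

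Other genes of the glutamate and glutamine cycle did not pass the test either. The list held 26 genes, among them vesicular glutamate transporters, glutamine transporters, transaminases and the astrocytic sodium pump. Of these, 25 were tested, and Slc1a7 had too few counts. None of the 25 was called by edgeR in any of the 6 comparisons. With the transgene in the Plekhg5+/+ background, 1 was higher and 2 were lower at an unadjusted p under 0.05, beside 18.2% of all genes in either direction. The median was -0.032 on the log2 scale, beside -0.001 over all genes. Those with the smallest p were Slc38a2, Slc17a6 and Atp1b2. Slc38a2, a transporter that carries glutamine into neurons among other cells, had 317.8 ± 50.8 CPM in Plekhg5+/+ and 237.7 ± 24.4 CPM in Plekhg5+/+ SOD1-G93A mice (SD, n = 3 each), a log2 fold change of -0.42 ± 0.13 (SE) with an adjusted p of 0.115 (edgeR). DESeq2 called it lower, with -0.43 and an adjusted p of 0.0372 without the prior and -0.32 and 0.0368 with it.

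Slc17a6, the vesicular glutamate transporter VGLUT2 of excitatory spinal neurons, had 274.2 ± 17 and 249.9 ± 9.85 CPM in the same genotypes (-0.13 ± 0.058, adjusted p = 0.244, edgeR). Atp1b2, a subunit of the astrocytic sodium pump, had 1281 ± 96.1 and 1459 ± 154 CPM (0.19 ± 0.084, adjusted p = 0.258, edgeR). When Plekhg5 was lost in the SOD1-G93A background, the median of the 25 genes was 0.081 beside -0.0097 over all genes. At an unadjusted p under 0.05, 3 of the 25 genes were higher and 0 lower, beside 8.64% of all genes in either direction. They included Slc17a6 (0.14 ± 0.058) and the GABA-producing enzyme gene Gad2 (0.20 ± 0.085), with adjusted p-values of 0.535 and 0.538 (edgeR). Both are mainly neuronal transcripts, and the neuron markers of the same comparison had a median of 0.139.

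Serine handling genes were looked up because Slc1a4 carries serine. None of the 7 was called in any of the 6 comparisons (edgeR). With the transgene in the Plekhg5+/+ background the smallest p-values were those of Slc7a10, which transports serine and glycine (-0.20 ± 0.081, adjusted p = 0.203), of the serine hydroxymethyltransferase gene Shmt2 (0.19 ± 0.092, adjusted p = 0.305) and of the phosphatase gene Psph (0.13 ± 0.15, adjusted p = 0.688, edgeR). When Plekhg5 was lost in the SOD1-G93A background they were those of Psph (-0.30 ± 0.15), the serine racemase gene Srr (0.11 ± 0.059) and Phgdh, the first enzyme of serine synthesis (-0.16 ± 0.16), with adjusted p-values of 0.585, 0.601 and 0.753 (edgeR).

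The list of proteins that bind these transporters held 6 genes. None was called in any of the 6 comparisons (edgeR). For the transgene in the Plekhg5+/+ background, Ajuba, whose product binds GLT-1, had 2.57 ± 0.366 and 3.56 ± 0.659 CPM (0.47 ± 0.21, adjusted p = 0.257), and the scaffold gene Magi1 had -0.17 ± 0.080 (adjusted p = 0.306, edgeR). After loss of Plekhg5 in the SOD1-G93A background, the scaffold gene Slc9a3r1 had -0.30 ± 0.13 and Magi1 0.12 ± 0.080, with adjusted p-values of 0.552 and 0.654 (edgeR).

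Slc1a2, Slc1a3 and Glul are transcribed in astrocytes, although RNA of whole tissue does not show which cells the reads came from. Of 10 astrocyte markers, 2 were called higher and 0 lower with the transgene in the Plekhg5+/+ background (edgeR), beside 2.47% of all genes called. Gfap, the intermediate filament gene of reactive astrocytes, had 1527 ± 264 CPM in Plekhg5+/+ and 3592 ± 1266 CPM in Plekhg5+/+ SOD1-G93A mice, a log2 difference of 1.23 ± 0.22 (adjusted p = 0.0198), and Sox9, a glial transcription factor gene, had 25.1 ± 3.14 and 43.9 ± 11.9 CPM (0.81 ± 0.16, adjusted p = 0.0206, edgeR). Aqp4, the water channel gene, had 0.56 ± 0.15 with an adjusted p of 0.0687 (edgeR). The 10 markers ran from -0.32 to 1.23 on the log2 scale, with a median of 0.102. Their summed level, which includes Gfap, was 7520 to 10311 CPM in Plekhg5+/+ SOD1-G93A against 5730 to 6486 CPM in Plekhg5+/+ mice. In the same comparison, Slc1a2 had 0.010, Slc1a3 0.11 and Glul 0.015 on the log2 scale. Whether these differ from the astrocyte markers was not tested. Without the first or the second Plekhg5+/+ library, and with only the 2 genotypes in the fit, 0 of the 10 markers passed (edgeR), with medians of 0.138, 0.112 and 0.0894.

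Of 10 microglia markers, 9 were called higher and 0 lower with the transgene in the Plekhg5+/+ background (edgeR), beside 2.47% of all genes called. The median of the 10 was 1.13, and their summed level was 963.3 to 1758 CPM against 505.6 to 593.4 CPM. Without the first or the second Plekhg5+/+ library, and with only the 2 genotypes in the fit, 0 of the 10 passed (edgeR), with medians of 1.13, 1.07 and 1.12. For loss of Plekhg5 in the SOD1-G93A background, 0 of 10 astrocyte and 0 of 10 microglia markers were called (edgeR), with medians of -0.188 and -0.635. At an unadjusted p under 0.05, 3 and 9 were lower, beside 8.64% of all genes in either direction. None of 6 motoneuron markers was called with the transgene in the Plekhg5+/+ background (edgeR), and the median was -0.338. At an unadjusted p under 0.05, 4 were lower, beside 18.2% of all genes in either direction. The markers of oligodendrocytes, endothelial cells and Schwann cells gave 0 calls in this comparison too.

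**Figure D4:**
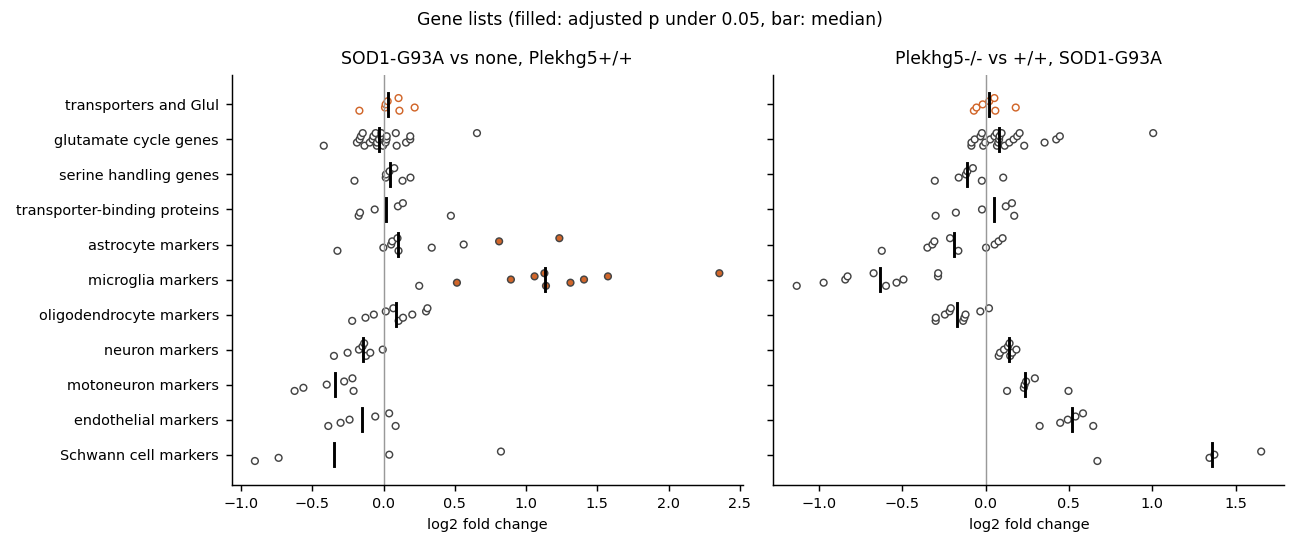
Log2 fold change from edgeR of the 7 genes and of the genes of 10 other lists, with the transgene in the Plekhg5+/+ background (left) and with loss of Plekhg5 in the SOD1-G93A background (right). Each point is a gene, filled where the adjusted p is under 0.05, and the bar is the median of a list: filled points are found among microglia markers (9 of 10) and astrocyte markers (2 of 10) on the left, and nowhere on the right.

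Within genotypes, some of the 7 genes varied together between mice. For each gene the deviation of every library from the mean of its genotype was taken on the log2 scale, and each of the 21 pairs of genes was compared over the 12 libraries. The p-values are from two-sided exact permutation tests over the 1296 orders of mice within genotypes, adjusted over the 21 pairs. The pairs were examined after the values were seen, and all genes of a library share its RNA, depth and dissection. Glul and Slc1a4 deviated against each other, with a Pearson r of -0.784 (p = 0.00231, adjusted p = 0.0486, exact permutation) and a Spearman rho of -0.923 (p = 0.000772, the smallest this test can give, adjusted p = 0.0162, exact permutation). Without the 2 libraries farthest from the median of Glul, r was -0.812. Slc1a2 and Slc1a4 deviated in the same direction, with r = 0.737 (p = 0.00617, adjusted p = 0.0486, exact permutation) and rho = 0.769 (p = 0.00386, adjusted p = 0.0405, exact permutation), and r was 0.508 without the 2 libraries farthest from the median of Slc1a4.

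Glul and Slc1a2, the 2 most abundant transcripts of the set, deviated in opposite directions, with r = -0.616 (p = 0.00694, adjusted p = 0.0486, exact permutation) and rho = -0.699 (p = 0.00849, adjusted p = 0.0551, exact permutation), so that the rank test did not pass after adjustment. Without the 2 libraries farthest from the median of Glul, r was -0.839. Larger values of r in other pairs did not pass. Glul and Slc1a1 had r = -0.863 and rho = -0.853 (adjusted p = 0.088 and 0.0551, exact permutation), and r was -0.671 without the 2 farthest libraries. Glul and Slc1a3 had r = 0.8 and rho = 0.727 (adjusted p = 0.088 and 0.14, exact permutation), and r was 0.658 without the 2 farthest libraries. Slc1a2 and Slc1a3, the glial transporters, had r = -0.496 (adjusted p = 0.258, exact permutation). Slc1a5 had r between -0.167 and 0.211 with the other 6 genes.

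**Figure D5:**
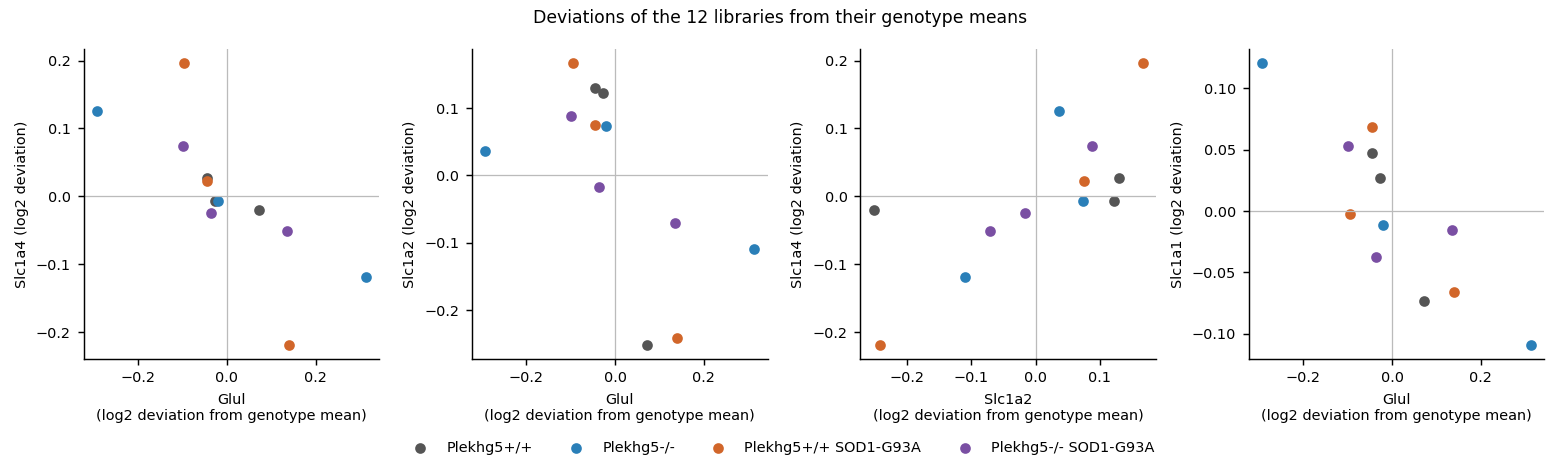
Deviation of each of the 12 libraries from the mean of its genotype, on the log2 scale, for Slc1a4, Slc1a2 and Slc1a1 against Glul and for Slc1a4 against Slc1a2. Points fall to the right against Glul (r = -0.784 for Slc1a4, -0.616 for Slc1a2 and -0.863 for Slc1a1) and rise for Slc1a4 against Slc1a2 (r = 0.737), and 2 Plekhg5-/- mice lie at both ends of Glul.

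Marker levels were compared with the 7 genes in the same way. None of the 70 relations with the 10 other lists passed after adjustment (exact permutation within genotypes). The largest r were those of the transporter-binding proteins with Slc1a1 (r = 0.894, rho = 0.944, p = 0.00309 and 0.00309, adjusted p = 0.149 and 0.216, exact permutation) and with Slc1a2 (r = 0.889, rho = 0.734, p = 0.0139 and 0.0316, adjusted p = 0.149 and 0.237, exact permutation). Next came those of Slc1a1 with the endothelial markers (r = 0.885, rho = 0.874, p = 0.00849 and 0.00926, adjusted p = 0.149 and 0.234, exact permutation) and of Glul with the serine handling genes (r = 0.875, rho = 0.615, p = 0.0147 and 0.131, adjusted p = 0.149 and 0.417, exact permutation). Without the 2 farthest libraries, these 4 values of r were 0.92, 0.756, 0.733 and 0.711. Glul had r = -0.872 with the endothelial markers and 0.739 with the oligodendrocyte markers (adjusted p = 0.185 and 0.237, exact permutation). Slc1a3 had r = 0.644 and Slc1a2 r = -0.0788 with the astrocyte markers. The first Plekhg5-/- mouse had the highest Glul (2279 CPM), the highest summed oligodendrocyte markers (32707 CPM) and the lowest endothelial markers (107 CPM) of all 12 mice. The part of tissue composition in these values was not tested.

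The genes whose levels followed each gene most closely over the 12 libraries were sought among 16608 genes, by Pearson r of log2 CPM. They were Rassf5 (0.964), Elavl4 (0.953) and Dip2c (0.949) for Slc1a1, Xpr1 (0.953), Zeb1 (0.947) and Zfp853 (0.946) for Slc1a2, and Nthl1 (0.932), Shmt1 (0.883) and Tspan31 (0.883) for Slc1a3. Elavl4 encodes a neuronal RNA-binding protein. For Slc1a4 they were Adamtsl1 (0.944), H2-Q7 (0.938) and Gbp7 (0.925), the last of which is an interferon-induced GTPase gene. For Glul they were Castor1 (0.925), Lrrc57 (0.919) and Tm2d2 (0.911). The closest genes to Slc1a5 were Qprt (0.85), Ifi27l2a (0.845) and Gpx3 (0.839), and those to Slc1a6 were Nsmce2 (0.849), Neu1 (0.817) and Ptrh2 (0.814). These likenesses are a description over 12 libraries that share the 4 genotypes, with no test.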

How the data were processed

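RNA of whole spinal cord from 12 mice, 3 per genotype, was sequenced by the authors with a stranded poly-A kit. Per the submitters' processing notes and the methods, the authors used bcl2fastq 2.20.0.422, trimmed reads with cutadapt 2.4, mapped them with STAR 2.7.2b to GRCm38.p6 plus human SOD1 cDNA, and counted exons by strand with featureCounts 1.6.4, splitting reads with several matches into fractions. The deposited values are therefore estimated counts, not normalized, and were rounded to whole numbers. A gene with a similar or overlapping copy can gain or lose fractions of reads. All 12 columns were matched to mice by name.

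edgeR 4.0.16 (R 4.3.3) was run with TMM factors, filterByExpr and robust quasi-likelihood fits of all 4 genotypes, and p-values were adjusted by Benjamini-Hochberg over the 20155 genes tested. The SE is the fold change divided by the root of F. Deviations and correlations used log2 CPM with a prior count of 2, and likeness was sought among genes with a mean of at least 1 CPM. Libraries with over 1000 counts of 4 Y-linked genes were taken to hold Y-linked transcripts. Alternatives were DESeq2 1.42.0 (with a prior on fold changes, as the study used, and without), limma 3.58.1 voom with quality weights, other size factors, filters, thresholds and sets of libraries, a replicate block and a Y-linked covariate. The scripts were tested on simulated data. Figures were drawn with Python 3.11.15 and matplotlib 3.10.9.

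The 7 genes and the other lists were chosen with earlier results of these data known, and the promoter motifs after the sequences were seen. Named were all 7 genes, Plekhg5, SOD1, called genes of the cycle, serine and binding lists or otherwise the 3 with the smallest p in each of the transgene comparison in Plekhg5+/+ mice and the Plekhg5 comparison in SOD1-G93A mice, up to 3 markers per list, and the 3 genes most like each member. Some genes named by this rule are not reported here. Pyruvate carboxylase (Pc) is Pcx in the table. Same-genotype libraries differed by 5.67 to 27.4 times counting noise (chi-square per degree of freedom), so none was a duplicate. The labels do not name litters. Protein sequences were not used here.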

Additional observations from a re-analysis of the deposited data

How the results depend on the processing

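None of the 7 genes passed the test in any comparison under any of the 22 alternative settings, 12 of which left out 1 library, and 0 of 868 values of single genes had an adjusted p under 0.05. The smallest adjusted p was 0.0544, for Slc1a4 as given above. The number of glutamate cycle genes called with the transgene in the Plekhg5+/+ background was 1 (Slc38a2) in place of 0 with DESeq2, with and without the prior, for which the cause was not tested, and 0 under all other settings. Counts over all genes depended on the tool and on single libraries. With the transgene in the Plekhg5+/+ background edgeR called 498 genes, DESeq2 1175 without and 1205 with the prior, voom 282, and edgeR on the 2 genotypes alone 3. Over all settings at this threshold, the counts ran from 2 to 1205 in this comparison, from 4 to 113 for loss of Plekhg5 in the SOD1-G93A background (7 reported), from 4 to 59 for its loss without the transgene (6 reported), from 0 to 44 for the transgene in the Plekhg5-/- background (1 reported), from 0 to 111 for the interaction (0 reported) and from 10 to 827 for the averaged transgene effect (245 reported). The labels do not say whether the replicate numbers pair the mice. Same-numbered libraries deviated together in 5 of 18 pairs (r over 0.1, range -0.163 to 0.318). This does not decide whether they were paired, because libraries with different numbers were not compared in this way. With the replicate block 0 of the 7 genes were called, 631 genes were called for the transgene in the Plekhg5+/+ background, and 1 value changed sign. Precision is limited by 3 mice per genotype, and Slc1a5 had the lowest counts of the 7 genes and the largest spread between mice of 1 genotype.

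Many fitted changes lie near 0, and 94 of the 868 values had the other sign, 6 of them by more than 1 SE; none of these values passed the test under any setting, and the cause was not tested. The log2 fold changes of other sign are given here by setting. With voom, these were -0.039 for Slc1a2 with the transgene in the Plekhg5+/+ background, -0.055 for Slc1a3, 0.23 for Slc1a5 and -0.048 for Glul with loss of Plekhg5 without the transgene, -0.083 for Slc1a5 and 0.065 for Glul with the transgene in the Plekhg5-/- background, 0.032 for Slc1a3, -0.15 for Slc1a5 and 0.045 for Glul in the interaction, -0.001378 for Slc1a2, -0.007676 for Slc1a5, 0.01456 for Slc1a6 and 0.042 for Glul with the transgene averaged over both backgrounds. Without a filter on low counts, these were -0.0009029 for Slc1a2 with the transgene in the Plekhg5+/+ background, -0.001018 for Slc1a3 with loss of Plekhg5 without the transgene. With only 2 genotypes in the fit, these were -0.003177 for Slc1a2 with the transgene in the Plekhg5+/+ background. With the replicate block, these were 0.001171 for Glul with the transgene averaged over both backgrounds. With the Y-linked covariate, these were -0.069 for Slc1a5 with loss of Plekhg5 in the SOD1-G93A background, 0.004845 for Slc1a6 with the transgene in the Plekhg5-/- background, 0.036 for Slc1a6 with the transgene averaged over both backgrounds. With 1 library left out, the values of other sign belong to these ranges. For the transgene in the Plekhg5+/+ background, the log2 fold change ran for Slc1a2 from -0.10 to 0.12, Slc1a5 from -0.01293 to 0.27, Slc1a6 from -0.059 to 0.11 and Glul from -0.059 to 0.062. For loss of Plekhg5 in the SOD1-G93A background, the log2 fold change ran for Slc1a2 from -0.058 to 0.14, Slc1a3 from -0.16 to 0.008551, Slc1a4 from -0.17 to 0.033, Slc1a5 from -0.04 to 0.17, Slc1a6 from -0.02028 to 0.11 and Glul from -0.088 to 0.056. For loss of Plekhg5 without the transgene, the log2 fold change ran for Slc1a1 from -0.12 to 0.002108, Slc1a2 from -0.14 to 0.038, Slc1a3 from -0.13 to 0.10, Slc1a4 from -0.0003508 to 0.12, Slc1a5 from -0.58 to 0.24 and Glul from -0.15 to 0.16. For the transgene in the Plekhg5-/- background, the log2 fold change ran for Slc1a3 from -0.058 to 0.18, Slc1a5 from -0.073 to 0.74 and Glul from -0.16 to 0.14. For the interaction, the log2 fold change ran for Slc1a2 from -0.038 to 0.19, Slc1a3 from -0.17 to 0.084, Slc1a5 from -0.18 to 0.64, Slc1a6 from -0.15 to 0.02271 and Glul from -0.17 to 0.14. For the transgene averaged over both backgrounds, the log2 fold change ran for Slc1a2 from -0.01048 to 0.10, Slc1a6 from -0.047 to 0.038 and Glul from -0.073 to 0.071. The 6 changes of sign over 1 SE were those of Slc1a2 with the transgene in the Plekhg5+/+ background, without the first Plekhg5+/+ library, of Slc1a4 with loss of Plekhg5 in the SOD1-G93A background, without the first Plekhg5+/+ SOD1-G93A library, and, all without the first Plekhg5-/- library, of Slc1a3 and Glul with loss of Plekhg5 without the transgene and of Glul with the transgene in the Plekhg5-/- background and in the interaction.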
